A study of Caenorhabditis elegans with 8 samples.

Results

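The wild-type Caenorhabditis elegans strain N2 was profiled by RNA sequencing of whole larvae that had been held in L1 arrest for 48 hours. The libraries described here are the 4 labelled N2 of the 8 in the series, named replicates A, B, C and D, which the series' design calls biological replicates. The labels do not say that they came from separate cultures, so the spread given here may be partly technical. Eggs had been freed from worms by hypochlorite, kept in M9 buffer without treatment, and collected as arrested larvae. Each library is a pool of whole animals, so a level averages over all tissues, and fewer cells of a type and less RNA per cell cannot be told apart. The 4 libraries of strain HBR227, which carries aptf-1(gk794), were not compared with N2.

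Worms that hatch where there is nothing to eat stop at the first larval stage, which is called L1 arrest. They move and survive for weeks but do not grow, moult or divide their blast cells until they feed. Lowered insulin signalling through the receptor DAF-2 releases the transcription factor DAF-16, which is needed for survival in this state, and stored fat and sugar are used as fuel. The germ line consists of only the primordial germ cells, and sperm, oocytes, yolk and adult cuticle are made much later.

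The deposited values are raw read counts per gene. Levels are given as CPM, the count of a gene divided by the library's total over gene rows and multiplied by 1000000, written M below. CPM measures a gene's share of the reads, which grows with transcript length, so a comparison of levels between genes needs TPM, the counts per kb of annotated exon rescaled to the same total as CPM. An order by CPM is an order of reads, not of transcripts. How reads were assigned by strand is not given in the sources used here, so overlapping genes on opposite strands cannot be told apart: such overlaps cover 19.4% of the exon bases of rrn-3.1, 5.01% of eef-1A.1 and 12.01% of mlc-2. Unless stated otherwise, values are the mean ± SD over the 4 libraries (n = 4).

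Gene counts came to 43552910, 56418653, 47790373 and 52382239 in replicates A, B, C and D. Pearson correlations of log2 CPM between libraries, across genes that are not independent replicates, ran from 0.994 to 0.998. Counts of every pair of libraries differed by more than sampling noise, with a chi-square per degree of freedom of 4.44 to 16.04, so no library repeats another. Replicates B and D stood apart. On the leading principal component, with 67.1% of the variance in log2 CPM, B scored 9.60 and D scored -6.14, against -3.52 for A and 0.0644 for C. The gene aptf-1, which is mutated in HBR227 and encodes an AP-2 transcription factor of the sleep neuron RIS, gave 3.70, 3.47, 3.81 and 4.47 CPM, a mean of 3.86 ± 0.427, so its message was present at a low level in every library.

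A small part of the genes held most of the counts. Of 46422 gene rows, 26840 had at least 1 count in at least 1 library and 20742 had counts in all 4. Protein-coding genes took 92.5% ± 0.378 of counts, ribosomal RNA (rRNA) genes 4.91% ± 0.349, pseudogenes 1.26% ± 0.0284 and the mitochondrial genome 0.649% ± 0.0451. The pseudogene share was 0.898% ± 0.00685 without rrn-3.56, an rRNA fragment annotated as a pseudogene. The 10 genes with most counts held 10.7% ± 0.362, the first 100 held 30.2% ± 0.635 and the first 1000 held 63.7% ± 0.701. Counting downwards from the highest gene, 417 rows held 50% of all counts and 4877 held 90%. On the per-length scale the 100 highest genes held 34.2% of TPM.

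The 3 genes with most counts were copies of nuclear rRNA, the RNA core of the ribosome. The 26S gene rrn-3.1 (WBGene00004622, chromosome I, 15064838 to 15068346 in WBcel235) gave 19224, 19780.1, 23004 and 20976 CPM in replicates A, B, C and D. Replicate C was highest and A lowest, and the mean was 20746 ± 1673 CPM. The 18S copies rrn-1.2 and rrn-1.1 gave 14902 ± 996 and 13283 ± 874 CPM, with a ratio of 1.12 between them in the mean of the 4 libraries. These are 2 copies of a repeated unit, so how their reads were divided depends on how the authors counted reads with several matches, and the split is uncertain. A fragment annotated as a 26S pseudogene, rrn-3.56, ranked among the first 30 as well, at 3647 ± 312 CPM. The labels give total RNA as the starting material and no step against rRNA. Whether rRNA was removed, and how its reads were mapped and counted, is not given. The rRNA counts are therefore not a measure of how much rRNA the larvae held. The rRNA share of counts moved from 4.56% in A to 5.33% in C.

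The next rank belonged to translation. The elongation factor gene eef-1A.1 (WBGene00001168, chromosome III, 6970026 to 6971712, minus strand), whose protein brings aminoacyl-tRNA to the ribosome, gave 11383, 10817, 11152 and 11222 CPM. It was highest in A and lowest in B, with a mean of 11143 ± 238 CPM, and was the highest protein-coding gene per length at 9926 ± 262 TPM. The gene eef-2, which encodes the factor that moves the ribosome along the message, gave 7468, 6945, 7232 and 7273 CPM and 3535 ± 121.5 TPM. Both were lowest in replicate B. Further genes of this kind in the first 30 by CPM were rpl-3 (3207 ± 91.6 CPM), rpl-10 (3122 ± 116.9 CPM) and pab-1, the poly(A)-binding protein gene (2851 ± 70.2 CPM). Per length, rpl-10 stood at 6131 ± 197 TPM, 6th among all rows, while rpl-3 stood at 3016 ± 102 TPM.

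Chaperones formed the next group. F44E5.5 (WBGene00009692, chromosome II, 11759662 to 11761861, plus strand) and F44E5.4 (WBGene00009691, chromosome II, 11757107 to 11759311, minus strand) are neighbouring, near-identical genes of the HSP70 type. F44E5.5 gave 9291, 9311, 9281 and 9131 CPM, and F44E5.4 gave 9277, 9289, 9259 and 9114 CPM. The ratio between them ran only from 1.0016 to 1.0024 across libraries, and their sum was 18488 CPM or 1.85% of counts. How reads that match both genes were counted is not given. If such reads were counted for each gene, the sum holds them more than once, so the sum is uncertain too. The cytosolic chaperones hsp-90 and hsp-1, an HSP90 and a constitutive HSP70, gave 4940.1 ± 81.3 and 2856 ± 66.6 CPM.

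Energy metabolism supplied several of the first 30. The gene ant-1.1 (WBGene00006439, chromosome III, 13463163 to 13464652, plus strand) encodes the carrier that exchanges ADP and ATP across the inner mitochondrial membrane. Its values were 9271, 8722, 8974 and 9141 CPM, again lowest in B, and per length it followed eef-1A.1 at 9625 ± 298 TPM. The gap between these 2 genes on the TPM scale was about the size of their SDs. F01G4.6, which encodes a mitochondrial phosphate carrier, gave 3343 ± 75.0 CPM, and F07H5.5, annotated as a pseudogene, gave 3347 ± 71.8 CPM. The 2 values had a ratio of 0.985 to 1.02 across libraries and a sum of 6690 CPM. Whether these 2 genes share reads is not known, so the split between them is uncertain. The glutamate dehydrogenase gene gdh-1 gave 4246, 3831, 4128 and 4234 CPM, and icl-1, the gene of the bifunctional enzyme of the glyoxylate cycle that lets worms make sugar from fat, gave 3648, 3267, 3551 and 3686 CPM. In both, replicate B was below the other 3.

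The remaining leaders were of several kinds, some of them structural or lysosomal. The body-wall myosin gene unc-54 gave 6041, 5485, 5945 and 5732 CPM, a mean of 5801 ± 247.0. The aspartyl proteases asp-6 and asp-1, enzymes of lysosomes and the gut, gave 3903 ± 288 and 3322 ± 211 CPM, lowest in B. The calcium pump gene sca-1 gave 2984 ± 160.2 CPM and the nuclear anchorage gene anc-1 gave 2879.7 ± 645 CPM. Other members of the first 30 were tos-1 (5921 ± 119.5 CPM), srap-1 (5287 ± 409.8 CPM), alh-8 (5084 ± 179 CPM), brp-1, nog-1, frm-1 and pqn-59. Among the 29 pairs of neighbours in this order, 9 kept their order in all 4 libraries, 13 in 3 of them and 7 in 2 or fewer, so most neighbours did not keep their order in every library.

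**Figure D1:**
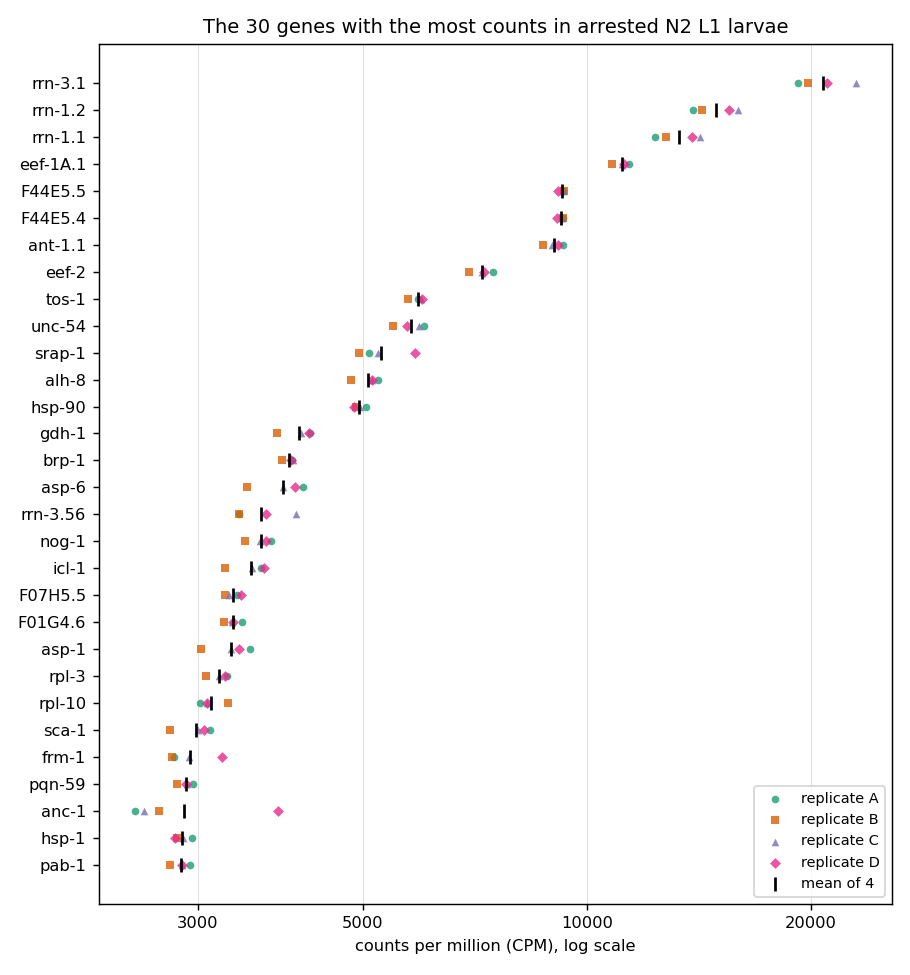
CPM (log scale) of the 30 genes with the highest mean in each N2 library, with replicates as coloured symbols and the mean of 4 as a black bar. The rRNA genes spread 1.15 to 1.197-fold between libraries, and anc-1, with the widest range at 1.55-fold, lies apart in replicate D.

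Ranking per length brought short messages forward. Of the first 30 rows by CPM, 13 were also in the first 30 by TPM. The myosin light chain gene mlc-2 stood at 5594 ± 120.2 TPM, the ATP synthase subunit c gene Y82E9BR.3 at 4333 ± 87.1 TPM, and the small heat shock gene hsp-16.11 at 4112 ± 265.4 TPM, with its copy hsp-16.1 at 3958 ± 287 TPM. The long non-coding RNA tts-1 stood at 4969.5 ± 258 TPM, with 2505, 2530.5, 2519 and 2769 CPM in replicates A, B, C and D, highest in D. It is known for binding to ribosomes in dauer larvae, another arrested stage, and in long-lived insulin receptor mutants. At the other end, the long genes srap-1 and anc-1 stood at 649 ± 53.3 and 152 ± 34.6 TPM.

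Proteins of the cytosolic ribosome were the largest family by far. The 82 genes took 9.31%, 9.19%, 9.19% and 9.22% of counts in replicates A, B, C and D, and 21.1% of TPM. Their share differed by 1.01 times between the highest and the lowest library. All but 4 gave at least 100 CPM, and 42 gave 1000 CPM or more. The exceptions were rpl-42 at 0.338 CPM, rpl-11.1 at 43.1, rpl-37 at 62.6 and rpl-41.1 at 69.3 CPM. Elongation factors took 2.28% ± 0.0494 with 8 genes, of which eef-1A.1, eef-2 and the next held 86.4%. By contrast the 71 genes of the mitochondrial ribosome took 0.232% ± 0.00467, 31 initiation factor genes 0.324% ± 0.00373 and 33 aminoacyl-tRNA synthetase genes 0.386% ± 0.00641.

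Heat shock proteins came next among protein families, at 3.37% ± 0.0299 of counts for 26 genes. The first 3 members, F44E5.5, F44E5.4 and hsp-90, held 69.6% of this share. Reads shared by F44E5.5 and F44E5.4 may be counted in both rows. The place of heat shock proteins above the muscle filament genes, at 3.29%, is therefore uncertain. Small heat shock genes of the hsp-16 group, which in fed, unstressed worms are known to be nearly silent, were present in every library: hsp-16.11 gave 1437, 1379.8, 1352 and 1550.0 CPM and hsp-16.2 gave 227, 215, 209 and 234. The copy of hsp-16.11, hsp-16.1, is near-identical to it, so their reads cannot be fully separated. The sum of hsp-16.11 and hsp-16.1 was 2696 CPM. The HSP110 gene hsp-110 gave 1355 ± 41.6 CPM and the mitochondrial chaperones hsp-6 and hsp-60 gave 892 ± 26.8 and 125 ± 5.26 CPM. Of the endoplasmic reticulum chaperones, hsp-3 gave 442 ± 8.76 CPM and the stress-inducible hsp-4 gave 75.5 ± 6.84 CPM, which per length were 227 ± 4.15 and 46.3 ± 3.93 TPM. The lowest member was hsp-2 at 0.519 CPM. The CCT chaperonin, which folds actin and tubulin, took 0.326% ± 0.00673, and proteasome subunits took 0.191% ± 0.00723 over 33 genes.

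Fuel pathways were unevenly filled. The nuclear genes of the respiratory chain and ATP synthase took 2.05% ± 0.0220, of which ant-1.1 alone was 44.0%, while its relatives ant-1.2, ant-1.3 and ant-1.4 gave 0.527, 0.256 and 0.0450 CPM, or 0.800, 0.337 and 0.0599 TPM. The 24 genes of glycolysis and gluconeogenesis took 1.15% ± 0.0219, led by the aldolase gene aldo-2 at 2419.7 ± 78.0 CPM. The genes pck-2 and pck-1 of phosphoenolpyruvate carboxykinase, the entry enzyme of sugar synthesis, gave 1835 ± 65.1 and 921 ± 15.7 CPM. Glyoxylate and trehalose genes took 0.704%, 0.646%, 0.689% and 0.707% in replicates A, B, C and D, lowest in B, and icl-1 made up 51.6% of that. The trehalose synthase gene tps-2 gave 455 ± 20.8 CPM. The acyl-CoA synthetase gene acs-2 and the desaturase gene fat-6, a starvation-responsive and a fat-building gene, gave 1183 ± 85.8 and 981 ± 58.5 CPM. Beta-oxidation genes took 0.240% ± 0.00907 over 42 genes. The cytochrome oxidase gene ctc-1, encoded in the mitochondrion, gave 1608, 1751, 1620.3 and 1852 CPM, higher in B and D than in A and C.

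Both daf-2 and daf-16 were read in every library, lowest in B and highest in D. The receptor gene daf-2 gave 338, 318, 335 and 356 CPM and the transcription factor gene daf-16 gave 243, 231, 245 and 248 CPM. Genes listed as DAF-16 targets or starvation genes took 0.701% ± 0.0231, of which icl-1 was 50.5%. The list was uneven: the superoxide dismutase gene sod-3, often used as a reporter of DAF-16, gave only 2.36 ± 0.0759 CPM, against 44.8 ± 1.203 for the metallothionein gene mtl-1 and 266 ± 3.95 for lea-1, which encodes a desiccation-type protein. Per length these 3 stood at 3.67, 164 and 75.4 TPM. Of 40 insulin-like peptide genes, 0 were undetected, 19 were detected under 1 CPM and 7 gave 10 CPM or more. They were led by ins-17 at 59.2 ± 1.96 CPM, then ins-30 at 28.9, ins-1 at 27.02 and ins-18 at 24.5 CPM. The peptide gene daf-28, an agonist of DAF-2 that is known to be expressed with food, gave 6.50 ± 0.684 CPM.

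**Figure D2:**
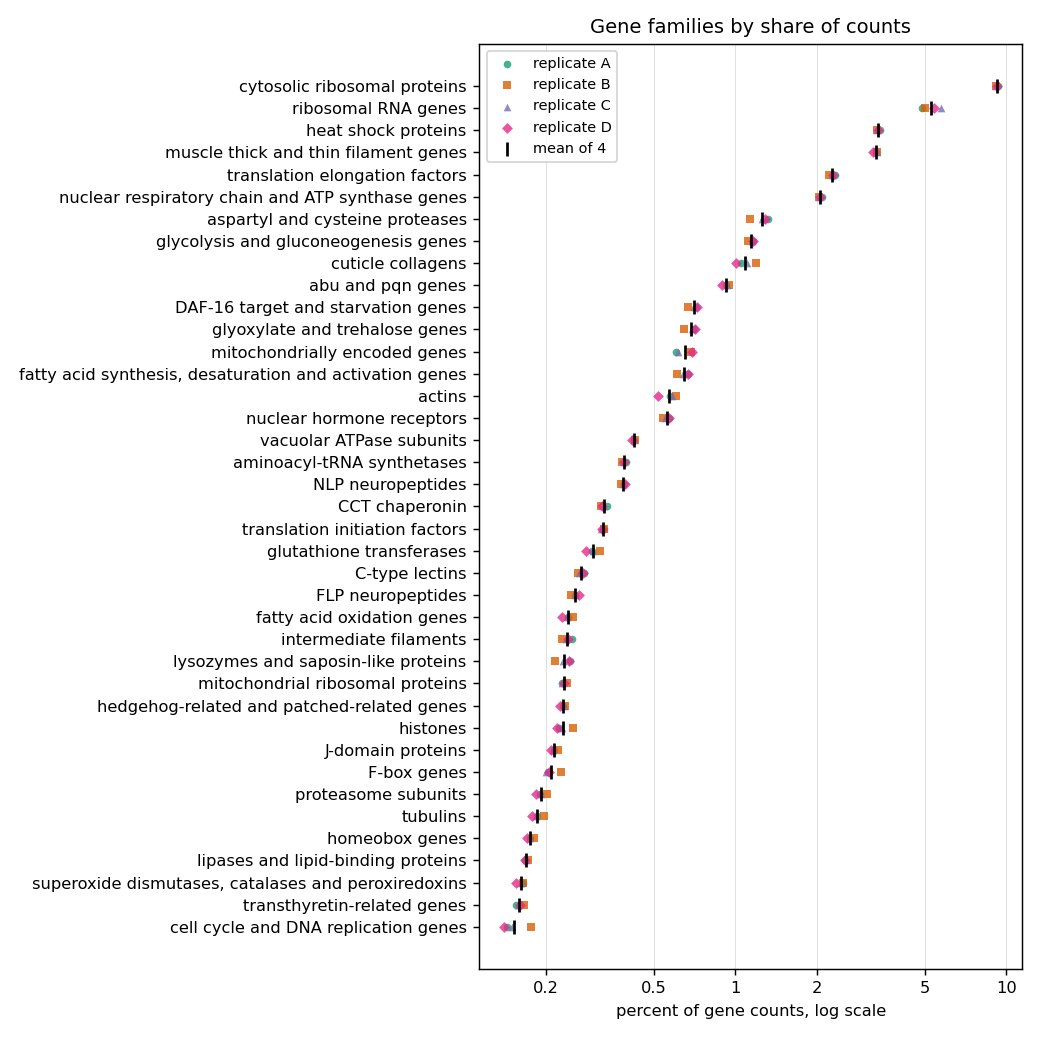
Share of all gene counts (percent, log scale) taken by the larger gene families, with each replicate as a coloured symbol and the mean as a black bar; some genes are on more than 1 list. Cytosolic ribosomal proteins lead at 9.23%, and rRNA, which in this list includes rrn-3.56 and so differs from the gene type above, with 4.89% in replicate A and 5.72% in C, has the widest gap between replicates in percent of counts.

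Muscle dominated the structural genes. The 28 genes of thick and thin filaments took 3.29% ± 0.0545, and 0 of them fell under 10 CPM. The body-wall myosins unc-54 and myo-3 gave 1280.2 ± 60.02 and 219 ± 6.27 TPM, and the pharyngeal myosins myo-2 and myo-1 gave 515 ± 13.3 and 476 ± 12.61 TPM. Actins took 0.568% ± 0.0357, at 0.601% in B and 0.517% in D, the highest and the lowest library.

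Cuticle collagens, the proteins of the worm's outer coat, took 1.09% ± 0.0782 over 180 genes and were divided. Under 1 CPM stood 74 of them, and 28 gave 100 CPM or more. The highest were the neighbours col-3 and col-117, with 1087, 1197, 1149.8 and 1017 CPM and 1081, 1190.2, 1144 and 1012 CPM. Their ratio ran only from 1.0048 to 1.0056 across libraries. How reads that match both were counted is not given, so these 2 values may hold largely the same reads. After them came col-10 at 696 ± 62.8 and col-144 at 656 ± 59.6 CPM. Other collagens were under 1 CPM. The adult gene col-19 gave 0.413, 0.337, 0.377 and 0.344 CPM, rol-6 gave 0.369 ± 0.129 and dpy-13 gave 0.627 ± 0.103 CPM. Per length these 3 were at 0.540, 0.465 and 0.868 TPM, against 1567 TPM for col-3. The list of 10 adult and late-larval cuticle genes took 0.000748% of counts, with 7 members detected under 1 CPM.

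Most neuropeptide genes were read at 10 CPM or more, a level reached by 43.8% of all protein-coding genes. Of 31 FLP genes, which encode peptides of the FMRFamide type, 29 gave 10 CPM or more, and the family took 0.255% ± 0.00740. The leader was flp-1 at 396, 383, 395 and 418 CPM. The RIS sleep peptide gene flp-11 gave 158, 152, 156 and 167 CPM, 292 ± 12.7 TPM. In the NLP family 61 of 81 genes gave 10 CPM or more, 14 gave 1 to 10 CPM and 6 were under 1 CPM. It was led in reads by nlp-49 at 387 ± 22.95 CPM. The enzymes that cut and trim these peptides led the list of pan-neuronal genes by CPM, with 1850.3 ± 79.6 CPM for the convertase gene egl-3 and 1082 ± 39.5 for the carboxypeptidase gene egl-21.

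Few receptors for smells and tastes reached that level. The 1630 chemoreceptor rows, pseudogenes included, took 0.0717% ± 0.00211 of counts together, against 0.255% for the 31 FLP genes. Only 5 gave 10 CPM or more, 1409 were detected under 1 CPM and 133 were undetected. One gene, srr-4, held 25.6% of the family's counts with 191, 187, 182 and 174.6 CPM, followed by srw-85 at 47.0 ± 1.41, odr-10, the diacetyl receptor, at 36.6 ± 2.56 and str-176 at 21.8 ± 1.98 CPM. Many such receptors are known to be made in single neuron pairs, which whole-animal libraries dilute. Nuclear hormone receptors, a family of transcription factors enlarged in worms, spread more widely: of 286 rows, 114 gave 10 CPM or more and 2 were undetected. They were led by nhr-88 at 802 ± 31.3 CPM, with the fasting regulator nhr-49 second at 179.8 ± 7.15. Of 94 homeobox genes, 0 were undetected and 42 gave 10 CPM or more.

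Defence and detoxification families differed in level. At 10 CPM or more were 31 of 264 C-type lectin rows and 23 of 81 cytochrome P450 rows, but 27 of 49 glutathione transferase and 17 of 29 aspartyl and cysteine protease rows, against 43.8% of all protein-coding genes. C-type lectins took 0.269% ± 0.00673 over 264 rows, of which 174 were detected under 1 CPM, and clec-63 alone held 31.3% of the family at 896, 758, 842 and 865 CPM. Glutathione transferases took 0.298% ± 0.0151, with 38.8% of it in gst-5 (1109.8, 1294, 1143 and 1075 CPM). Cytochrome P450 genes took 0.0687% ± 0.00125 over 81 rows. The F-box family, with 427 rows, took 0.208% ± 0.0121 and had a median of 2.18 CPM per gene. Aspartyl and cysteine proteases took 1.32%, 1.14%, 1.25% and 1.29%, lowest in B.

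Markers of the main larval tissues were detected. At 10 CPM or more were all 20 pan-neuronal genes, which took 0.620% ± 0.0187, all 13 body-wall muscle and all 15 intestine genes, and 14 of 15 pharynx, 9 of 16 skin and 4 of 11 glia genes. Of the factors that specify tissues, the gut gene elt-2 gave 29.9 ± 1.32 CPM, the body-wall muscle gene hlh-1 gave 21.99 ± 2.35 and the skin gene elt-3 gave 49.4 ± 1.22 CPM. The stage lists held both high and low genes. The heterochronic genes lin-14 and lin-28, which hold larvae to early fates, gave 314 ± 7.78 and 172 ± 3.73 CPM, while lin-29, which acts at the change to adult, gave 3.80 ± 0.363 CPM. Per length these 3 stood at 117.1 ± 3.51, 162 ± 4.07 and 2.26 ± 0.205 TPM. All 6 yolk genes together took 0.000860% of counts, the highest being vit-3 at 2.38 ± 0.147 CPM. Sperm genes took 0.0107% over 100 rows, 77 of them detected under 1 CPM and 7 undetected. Of 14 male genes only cwp-4 passed 10 CPM, at 13.6 ± 0.342, and lov-1 gave 0.191 ± 0.0655 CPM.

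Germ-line genes on the list were all detected, and oocyte genes all but 1. The 41 genes of germ granules and primordial germ cells took 0.0983% ± 0.00822, and 0 of them fell under 1 CPM. The helicase gene glh-1 gave 15.96, 17.5, 15.003 and 13.04 CPM, and pgl-1, a granule component, gave 14.3, 16.8, 12.8 and 11.7 CPM. Replicate B was highest and D lowest in both. The maternal regulators pos-1, spn-4 and oma-2, known from oocytes and early embryos, gave 101 ± 13.7, 70.3 ± 9.17 and 20.7 ± 3.88 CPM. Of the 22 oocyte and eggshell genes 12 gave 10 CPM or more, perm-2 and perm-4 were under 1 CPM, and skr-6 was undetected. Cell cycle and replication genes took 0.152% ± 0.0165 over 41 genes, with rfc-1 at 139.9, 170.3, 151 and 142 CPM and the mitotic kinase gene cdk-1 at 27.3, 36.2, 29.6 and 28.6 CPM. The cell cycle inhibitor gene cki-1 gave 24.1 ± 1.44 CPM.

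**Figure D3:**
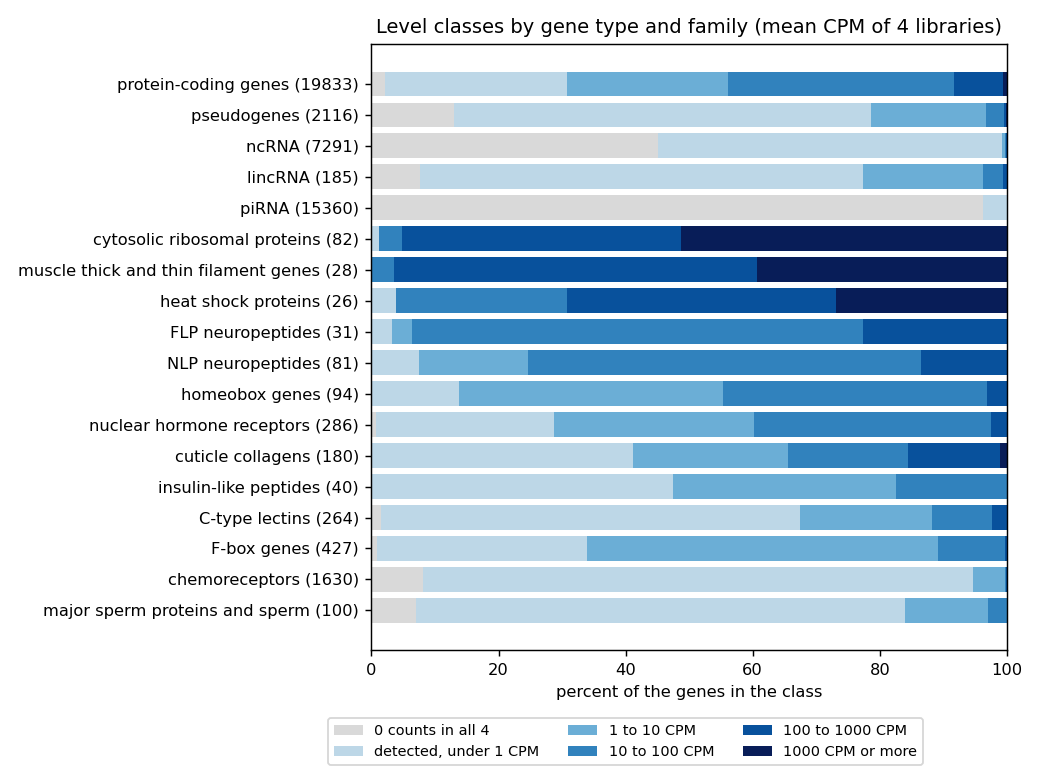
Percent of genes in each level class, by gene type and family, from 0 counts in all 4 libraries (grey) to 1000 CPM or more (darkest), with the number of rows in brackets. Ribosomal protein and muscle genes fill the dark classes, 96.2% of piRNA rows had no count, and most chemoreceptor and sperm rows are pale.

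Undetected means 0 counts in all 4 libraries together. With 200.1 M counts, a count of 0 allows a level of up to 0.0150 CPM over the 4 libraries by the 3-count limit, and this covers counting error only. In all, 19582 rows were undetected, of which 14774 were among the 15360 piRNA genes. Mature piRNAs and microRNAs are shorter than the fragments of a usual mRNA library, and the labels name no small-RNA step; the part of fragment size in these zeros was not tested. The rows of let-7, lin-4, lsy-6 and mir-1, microRNAs known from timing, neurons and muscle, were all at 0, and 137 of 258 rows with a microRNA name were undetected. The highest microRNA row, mir-5548, gave 4.12 ± 0.156 CPM.

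Among 19833 protein-coding rows, 408 (2.06%) were undetected and 8690 (43.8%) gave 10 CPM or more. The undetected genes were short, with a median of 452 bases of exon against 1179 among the detected ones, and a short gene draws fewer reads at the same level per length. They were mostly unnamed, since 281 carried only a sequence name. Chemoreceptors made up much of the named rest. Of 1309 protein-coding chemoreceptors 92 were undetected, which included 16 of 109 srw, 15 of 70 srbc, 14 of 220 srh and 10 of 192 str genes. The other undetected genes with names included fipr-14, fipr-15 and fipr-18, the lectins clec-133, clec-134 and clec-256, nhr-233 and nhr-265, fbxa-35, math-6, lips-2 and scl-15.

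Chromosomes differed in how much they were read. Chromosome I took 23.3% ± 0.318 of counts, followed by III (17.7%), V (16.19%), II (16.07%), IV (14.3%) and the X (11.001%). Once rRNA was left out of the counts, I held 19.1%, III 18.7%, V 17.09%, II 16.96%, IV 15.1% and the X 11.6%. Chromosome III had the highest median protein-coding gene, at 15.5 CPM, and V the lowest, at 1.77 CPM. Chromosome V, where many chemoreceptor genes lie, also held 180 of the 408 undetected protein-coding genes, 3.62% of its own 4978, against 1.19% on I and on III.

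The 4 libraries agreed closely for most genes. The common biological coefficient of variation (the relative spread between libraries beyond counting noise, estimated in edgeR) was 0.0643. Without replicate B it was 0.0422, and without replicate A, C or D it was 0.0714, 0.0756 or 0.0618. Over 8843 genes of at least 10 CPM the median coefficient of variation (SD over mean) was 4.91%, and over genes of at least 100 CPM it was 3.16%. At 10 CPM or more, 20 genes went over 20%, a number that depended on the libraries: it was 67, 8, 99 and 30 without replicate A, B, C and D. Ribosomal proteins were steadier, with a median of 1.51% at 100 CPM or more. Spread fell with level, and many of them lie high. Over all genes the median was 3.22% at 100 to 1000 CPM and 2.46% at 1000 CPM or more. The gene rps-18 gave 1017, 1019, 1022 and 1019 CPM, a coefficient of 0.189%, the smallest among all 8843. Counting noise alone gives a median of 0.345% to genes of 1000 CPM or more, so values this small are the low end of many draws. Others with little spread were M60.4 (0.272%), ogdh-2 (0.284%) and rps-3 (0.304%).

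**Figure D4:**
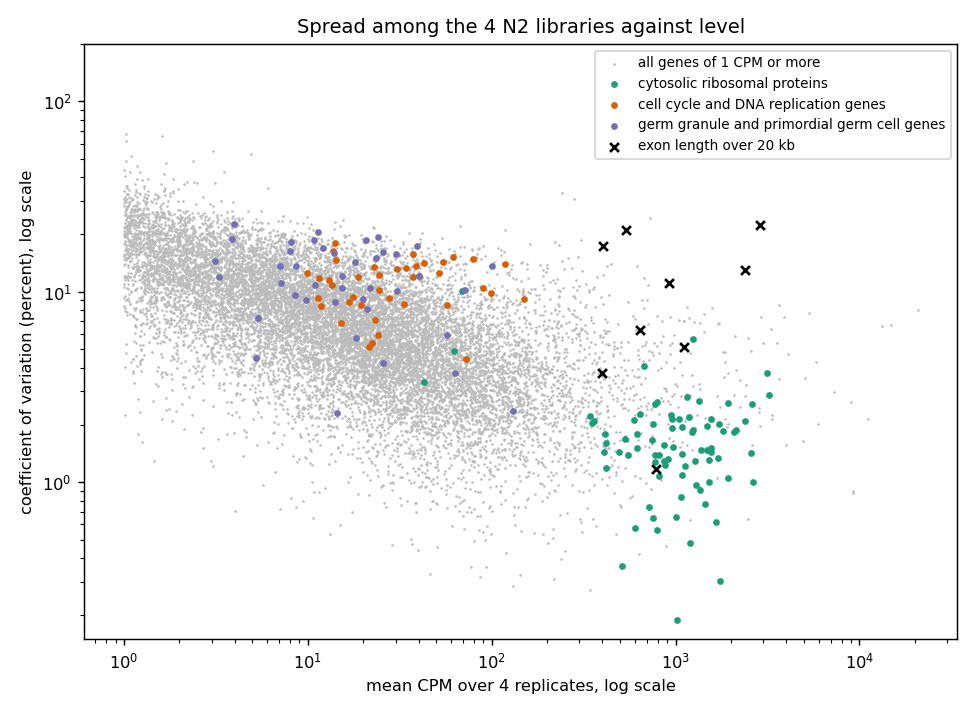
Coefficient of variation among the 4 libraries (percent, log scale) against mean CPM (log scale) for genes of 1 CPM or more, with 3 families in colour and genes of over 20 kb of exon as crosses. Ribosomal proteins lie mostly below 3%, cell cycle and germ granule genes have medians of 11.5%, and the 9 genes of over 20 kb have a median of 11.1%.

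The largest spreads came in 3 sets, and replicate D was often the highest or the lowest library in them. The gene hsp-16.49, of the small heat shock type, varied most, with 252, 181, 179 and 348 CPM (33.2%). Its near-identical partner hsp-16.48 gave 288, 218, 214 and 396 CPM (30.6%). They were high in D, next in A, and low in B and C. Among long genes, anc-1 gave 2471, 2663, 2544 and 3840.2 CPM, dig-1, a giant matrix gene, gave 477, 473, 494 and 709, and ZC247.1 gave 650.2, 573, 690 and 979 CPM. In all 3 replicate D was alone at the top. The 9 genes with over 20 kb of exon took 0.902%, 0.999%, 0.952% and 1.17% of counts, and those of 10 to 20 kb took 1.95%, 1.90%, 1.99% and 2.195%, both highest in D. The titin-like gene ttn-1, the longest named here, gave 2002, 2736, 2303 and 2487 CPM and was highest in B instead. The remaining wide genes, abu-1, pqn-2, icp-1, T22B2.1, F41E6.11 and T06E4.9, were highest in B or C, and 4 of them were lowest in D.

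Replicate B differed from the rest in whole families and by gene length. The median of its log2 CPM minus the mean of the 4 libraries fell as exon length rose. By total counts this median was 0.067 in genes of up to 1000 bases and -0.055 in genes of 10 to 20 kb. Over all 8843 genes of at least 10 CPM it was 0.035. The part of length in the family shifts below was not tested. Replicate B held the highest value in 49.7% of the 8843 genes of at least 10 CPM, and D held the lowest in 36.6%. C, the most central library, was highest in 9.74% and lowest in 19.6%. With trimmed-mean (TMM) scaling in place of total counts, B was highest in 3197 and D lowest in 2663 of these genes, so counts of members are given on both scales. All 39 cell cycle and replication genes at this level were highest in B, 38 with TMM. Their median in B lay 0.21 above the mean of the 4 libraries on the log2 scale by total counts. With TMM it lay 0.175 above that mean, where the median over all 8843 genes in B was 0. The replication helicase gene mcm-7 gave 72.5, 96.0, 75.8 and 70.7 CPM, and the cyclin gene cyb-3 gave 111, 143, 114 and 107 CPM. In both, B lay apart from 3 libraries that were close together. Germ granule genes were highest in B in 23 of 28 cases (21 with TMM) and lowest in D in 22 (21). Oocyte and eggshell genes were highest in B in 11 of 12 cases (7 with TMM) and lowest in D in 10 (10). The eggshell gene egg-5 gave 10.1, 12.62, 9.90 and 7.79 CPM and oma-2 gave 20.04, 25.4, 21.4 and 15.98, in the same order of libraries save for A and C in egg-5. Collagens were highest in B in 47 of 62 cases (42 with TMM) and lowest in D in 35 (33), and histones were highest in B in 12 of 18 (11).

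Other families were low in B, which was lowest in 23.0% of all 8843 genes by total counts. With TMM it was lowest in 3234 of the 8843, more than any other library, and the TMM counts of members are to be read against that. The aspartyl and cysteine proteases were lowest there in 15 of 17 cases (17 with TMM), FLP neuropeptides in 21 of 29 (24), pan-neuronal genes in 12 of 20 (13) and intestine markers in 8 of 15 (11). Replicate D held the highest value in 20.3% of all genes and in 21 of the 29 FLP genes (22 with TMM). Replicate A was highest in 20.3% of genes and in all 8 CCT chaperonin genes, or 7 with TMM, and lowest in 20.7% of genes and in 12 of 14 mitochondrially encoded ones on both scales. Germ-line, oocyte, cell cycle and collagen lists thus lay higher in B and lower in D, and neuropeptide lists lay the other way. The protease list was also low in B, but 11 of its 17 genes were highest in A and 5 in D (10 and 6 with TMM). The labels give no hatching time, worm number or RNA quality for each library, so their part in these shifts was not tested. Without replicate B the median coefficient of variation of the cell cycle genes went from 11.5% to 4.57% and that of germ granule genes from 11.5% to 8.34%, while it went from 4.91% to 3.475% over all genes of at least 10 CPM.

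**Figure D5:**
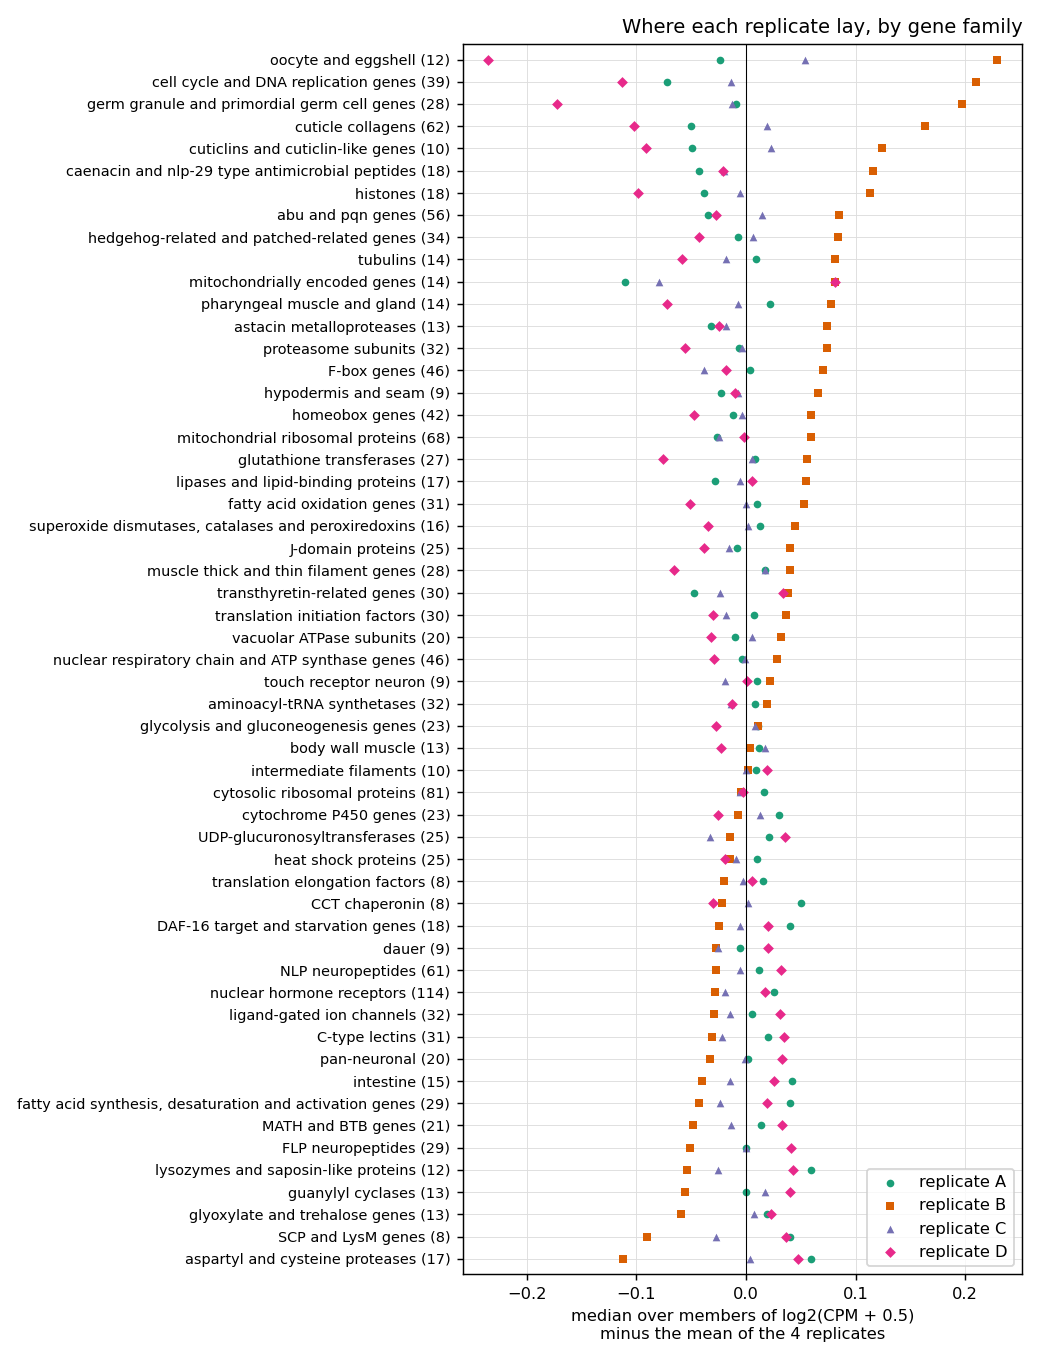
Median over family members (number in brackets, genes of at least 10 CPM) of each replicate's log2(CPM + 0.5) minus the mean of the 4 replicates. Replicate B lies right of zero by up to 0.23 in oocyte, cell cycle, germ granule and collagen lists and left of zero for proteases, while replicate D lies on the other side. CPM here uses total counts, on which the median over all 8843 genes was 0.035 in B and -0.020 in D.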

How the data were processed

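Whole wild-type N2 larvae in L1 arrest for 48 hours were sequenced in 4 libraries, from total RNA with standard Illumina protocols, per the labels' protocols. The authors deposited raw read counts per gene, not normalized. Per the submitters' processing notes, the tool was Bowtie 0.12.2 and the builds listed, without roles, were WBcel235 and mm8. What counted the reads, and how it treated those with several matches, is not given in the sources used here. Of 46433 rows, 11 had turned into dates and were left out of totals; they held 0.0321 to 0.0334% of counts.

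From the counts, counts per M (CPM) were computed on gene totals of 43.6 M to 56.4 M, and TPM with exon lengths of Ensembl release 115. Names matched by symbol for 41633 rows, by sequence name for 3161 and through RefSeq for 1000. Mitochondrial protein genes have no length here. Spread was estimated in edgeR 4.0.16 with an intercept alone, checked on simulated data, and in DESeq2 1.42.0 as an alternative. Python 3.11.15 and R 4.3.3 were used. No groups were compared. The floor of a count of 0 is 3 counts.

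Named genes are the 30 highest by CPM, the next 15 per kb, up to 4 leading and 6 undetected members of each family described, the 10 widest and 10 narrowest genes of at least 10 CPM, tissue and stage markers, and near-identical partners. Genes such as daf-2, daf-16, daf-28, aptf-1, sod-3, dig-1, mcm-7 and lin-14 and low family members were named outside this rule, with values known. The members and lists were chosen with earlier results of these data known.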

Additional observations from a re-analysis of the deposited data

Results flagged for a closer look

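In some families and genes a single library lay far from the other 3: its gap to the nearest library, divided by the range of the 4, passed Dixon's 95% critical value for 4 samples. Chance marks about 1 in 20 groups of 4 libraries, and 4 of 74 families and 6 of 134 genes examined were marked. The 4 families were marked by a high library. Astacin metalloproteases, which cut proteins outside cells, had shares of 0.0452%, 0.0478%, 0.0449% and 0.0447% in replicates A, B, C and D, with a gap ratio of 0.866. The caenacin and nlp-29 type antimicrobial peptide genes gave 0.0597%, 0.0655%, 0.0597% and 0.0591%, with a ratio of 0.909, and B was highest in both families. Replicate D was highest for the excretory cell list (0.868) and for the dauer list (0.859), in which tts-1 holds 70.9% of counts.

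Among genes, replicate D was highest for tts-1 (gap ratio 0.903), anc-1 (0.86) and dig-1 (0.91) and lowest for F44E5.5 (0.833). Replicate B was lowest for brp-1 (0.835) and egl-3 (0.85). All 10 marks fell on replicate B or D, the libraries at either end of the first principal component, and 0 on A or C. The number of marks was near the chance rate. B and D were also farthest from the mean in 48.8% and 24.9% of genes of at least 10 CPM. The marks are not independent, since tts-1 leads the dauer list. In addition, anc-1 is among the 10 widest genes and dig-1 was named with its values known. No conclusion is drawn from where the marks fell.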

How the results depend on the processing

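Of 597 values recomputed under other settings, 445 stayed within the spread between libraries, or for counts within 1.5 times, and 152 moved. The 296 family shares recomputed without 1 library are all among the unmoved, but this was fixed in advance. Leaving out 1 of 4 libraries cannot shift their mean by the SD that the rule asks for. The same holds for the chromosome shares without 1 library, so these values do not measure robustness. Ranking per kb of exon kept 13 of the 30 highest genes. Shares of TPM, and shares of a total without the 100 highest genes, were 21.1% and 5.24% for cytosolic ribosomal proteins, 1.82% and 0.445% for elongation factors, 2.61% and 1.38% for nuclear respiratory genes, 3.05% and 0.476% for heat shock proteins, 1.47% and 1.56% for collagens, 2.06% and 1.07% for muscle filaments, 3.64% and 0.00688% for rRNA, 0.0588% and 0.141% for germ granule genes, and 0.114% and 0.218% for cell cycle genes. These settings differ by construction, since one divides by length and the other removes leading members. Without the 100 highest genes chromosome I held 18.4%, II 16.35%, III 18.01%, IV 16.3% and X 13.5% of counts. Counting rows under 1 CPM as undetected gave 32041 rows and 6113 protein-coding genes, and counting protein-coding genes with fewer than 3 counts in every library gave 1125. The biological coefficient of variation ranged from 0.0422 without replicate B to 0.0756 without replicate C, and the median gene-wise value in DESeq2 was 0.0482; the cause was not tested. The TMM counts of highest and lowest libraries, and median coefficients without 1 library, were chosen after seeing the data. At this depth a protein-coding gene with 0 counts may still lie below 0.0150 CPM. No paired analysis was possible because no groups were compared.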
